A study of Rattus norvegicus with 8 samples.

Results

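The nuclear-encoded subunits of the mitochondrial respiratory chain were selected from the count table by name. Symbols beginning with Nduf followed by a letter for the subunit class and a number, the 4 Sdh subunit genes, Cyc1, and symbols beginning with Uqcr, with Cox followed by a subunit number and a letter from a to c, or with Atp5 were taken, which gave 85 symbols. Of these, 76 carried the biotype protein_coding in the authors' tables and form the set described here, among 28909 symbols in all. All 76 had more than 20 reads in at least 2 libraries and were among the 14309 genes tested. By symbol, 36 belong to complex I, 4 to complex II, 9 to complex III, 10 to complex IV and 17 to complex V. Ndufa4 is grouped here with complex I by its symbol, although it is now regarded as a subunit of complex IV. The other 9 symbols were left out by the rule. Atp5s had no biotype, Ndufs6 was annotated as a processed pseudogene, and Cox6a2, Cox6b2, Cox6c-ps1, Cox7a1, Cox7b2, Cox8b and Cox8c had at most 23 reads in any library.

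The respiratory chain lies in the inner mitochondrial membrane. Complex I (NADH dehydrogenase) and complex II (succinate dehydrogenase) pass electrons to ubiquinone, complex III (the cytochrome bc1 complex) passes them to cytochrome c, and complex IV (cytochrome c oxidase) passes them to oxygen. Complex V (ATP synthase) uses the resulting proton gradient to make ATP, the main energy supply of synapses. Most subunits are encoded in the nucleus and translated in the cytosol, but the membrane core of complex I, cytochrome b, the catalytic subunits of complex IV and part of the proton channel of complex V are encoded by the mitochondrial genome. In complexes I, III, IV and V, a few core subunits, many with cofactors or catalytic sites, are joined by further, mostly small subunits. Which subunits count as core was set for this report. All 4 subunits of complex II are counted as core here. In complex V only the alpha, beta and gamma subunits are, while the epsilon subunit and the genes of the rotor's c subunit are counted with the others.

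The RNA came from primary hippocampal neurons of Sprague-Dawley rats grown on porous inserts, with the somata on the upper side and processes that had passed the pores on the lower side. From day in vitro 18 to 20, a period of 48 h, cultures were kept with picrotoxin (PTX), an antagonist of the GABA-A receptor that raises network activity and was used to induce homeostatic synaptic downscaling, or served as controls, which the study's methods describe as given the vehicle, ethanol. The 4 groups were somata control, somata PTX, processes control and processes PTX, with 2 libraries each. Nothing in the labels states that replicates came from separate cultures, so p-values measure the spread between these libraries. In such bulk samples, a different mixture of cells or cell parts and a different amount of a transcript per cell cannot be told apart.

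Libraries held between 12290890 and 18455662 counts. Genes of the mitochondrial genome, rRNA included, took 22.6% to 26.7% of the counts in somata and 68.5% to 72.5% in processes. The median member was therefore covered by 781 to 986.5 reads per somata library and by 467 to 564 reads per processes library. All 9 neuronal marker genes were detected. Of these, 2 were higher and 6 lower in processes of control cultures, with a median log2 fold change of -0.57, from 2.30 for Map2, a dendritic cytoskeletal protein, to -0.98 for Syt1, a synaptic vesicle protein. The sum of the 9 was 2041 to 2479 CPM (reads of a gene scaled to a common library size) in somata and 4273 to 5745 CPM in processes. Astrocyte markers were present as well. Their sum over 7 genes was 2623 to 3937 CPM in somata and 10543 to 13951 CPM in processes. Of the 7 genes 3 were higher and 2 lower in processes of control cultures, with a median log2 fold change of 0.43. The values ran from 2.60 for Gfap, the astrocytic intermediate filament, to -0.56 for Slc1a3. In control cultures Gfap was at 1588 and 1781 CPM in somata against 11111 and 9382 CPM in processes. Microglial markers summed to at most 2.80 CPM and endothelial markers to at most 0.893 CPM in any library. Of the 8 tested markers of the oligodendrocyte lineage, 0 were called between compartments in control cultures (3 at an unadjusted p under 0.05), while in PTX cultures 2 were higher and 1 lower in processes. The part of neuronal, astrocytic and oligodendroglial RNA in the compartment differences below was not tested.

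The first question was how subunit transcripts are divided between somata and processes of control cultures. Of the 76 members, 64 were higher in processes and 0 were lower (edgeR quasi-likelihood test, Benjamini-Hochberg adjusted p under 0.05, TMM scaling), where 25.8% of all tested genes were higher and 21.9% lower. The other 12 members did not pass the test. In 38 members the increase was above 1 on the log2 scale, as it was in 11.6% of all tested genes. The median log2 fold change was 0.9997 over the members and -0.05 over all tested genes. As a share of all reads outside the mitochondrial genome, the 76 transcripts made up 0.857% to 0.939% in the 4 somata libraries and 1.12% to 1.18% in the 4 processes libraries, so that the compartments did not overlap.

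The direction of a single subunit depended on the scaling between libraries. With library size only, which counts the abundant mitochondrial rRNA, 1 member was higher and 60 were lower in processes, the median member was at -0.81 and the median tested gene at -1.86. Under that scaling 13462 of all 14309 tested genes were called in either direction. With TMM the corresponding values were 0.9997 and -0.05. A change of scaling shifts all genes nearly alike, so the members' median lay 1.05 above that of all tested genes under both by construction. With upper quartile scaling 55 members were higher in processes of control cultures, and among the named genes Atp5f1b, Atp5mc1, Atp5mc3, Ndufa8, Ndufs7 and Ndufs8 no longer passed (adjusted p from 0.0582 to 0.546, edgeR). Log2 fold changes below are on the TMM scale and are to be read relative to the median gene.

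**Figure D1:**
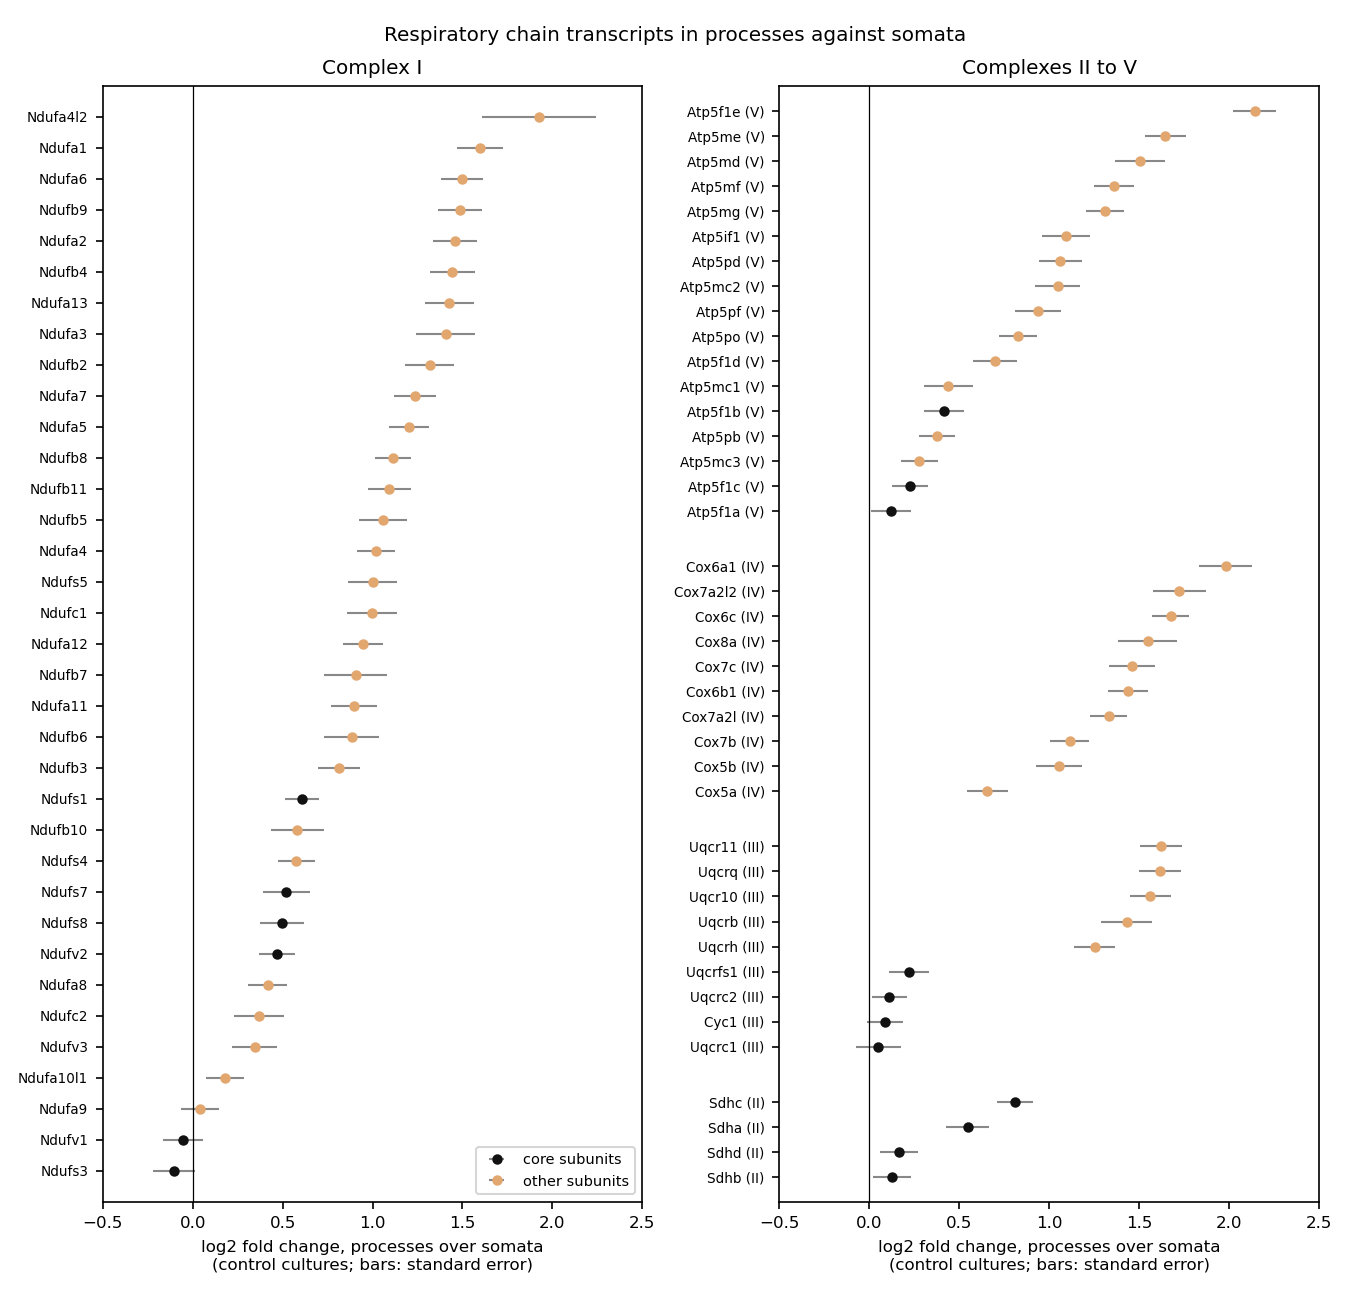
Log2 fold change of 75 of the 76 subunit transcripts in processes against somata of control cultures (points, TMM scaling; bars, standard error; 2 libraries per group), complex I on the left and complexes II to V on the right; black points are core subunits and orange points the other subunits. Core subunits lie between -0.10 and 0.81 and the other subunits between 0.04 and 2.14, on a scale where the median of all tested genes is at -0.05 (with library size only all values lie lower).

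The members were not shifted evenly. Among 18 core subunits, namely the 7 nuclear-encoded core subunits of complex I, the 4 of complex II, Cyc1, Uqcrfs1, Uqcrc1 and Uqcrc2 of complex III and the alpha, beta and gamma subunits of complex V, 8 were higher in processes, with a median log2 fold change of 0.23 and a highest value of 0.81. Among the 58 other subunits, 56 were higher, with a median of 1.12 and a range from 0.04 to 2.14. Protein and transcript length were not set beside this split. With core so defined, none of the core subunits exceeded 1. Of the other subunits 38 did, the c-subunit gene Atp5mc2 (1.05) among them.

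This difference could be read within each library, where scaling between libraries plays no part. Reads of the 58 other subunits divided by reads of the 18 core subunits gave 1.08 and 1.10 in somata control, 1.07 and 1.08 in somata PTX, 2.01 and 1.97 in processes control and 2.03 and 2.01 in processes PTX. The lowest processes library was thus well above the highest somata library, and the mean ratio was 1.83 times higher in processes than in somata of control cultures and 1.88 times higher in PTX cultures. Within complex I the ratio was 2.01 to 2.10 in somata and 3.09 to 3.30 in processes. Complex V had ratios of 0.678 to 0.687 in somata and 1.15 to 1.19 in processes. Complex III showed the widest gap of these, with 0.709 to 0.800 in somata and 1.95 to 2.02 in processes. In all these ratios the 4 somata libraries lay below the 4 processes libraries.

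In complex I, which oxidises NADH, 32 of 36 members were higher in processes of control cultures, with a median of 0.93. Of its core subunits, Ndufs1, which carries iron-sulfur clusters, had 66.9 and 66.7 CPM in somata and 100.2 and 103 CPM in processes, a log2 fold change of 0.61 ± 0.10 (SE; adjusted p = 0.000475, edgeR). Ndufv2, Ndufs7 and Ndufs8, which also hold iron-sulfur clusters, were higher by 0.47, 0.52 and 0.49. For these 4 the processes libraries lay above the somata libraries. Ndufv1, which binds NADH and the flavin, did not pass (-0.05 ± 0.11, adjusted p = 0.712, edgeR), with somata at 61.5 and 65.2 CPM and processes at 64.1 and 57.8 CPM. Ndufs3, a subunit of the quinone-reducing arm, was at 30.5 and 32.2 CPM in somata and 28.5 and 29.8 CPM in processes (-0.10 ± 0.12, adjusted p = 0.497, edgeR). Ndufv1 overlapped between the compartments, while Ndufs3 was slightly below its somata values. The call of Ndufs8 was lost without replicate 1 of somata control, where its log2 fold change was 0.42.

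Among the other subunits of complex I, 27 of 29 were higher, with a median of 1.02. Ndufa9, a subunit at the quinone site, was the lowest of them and did not pass, at 0.04 ± 0.11 (adjusted p = 0.786, edgeR), with somata at 35.5 and 37.1 CPM and processes at 36.8 and 37.8 CPM. Ndufa10l1 did not pass either, at 0.18. All 10 Ndufb subunits, which lie in the distal membrane arm, were higher, from 0.58 to 1.49, as were 12 of the 14 Ndufa subunits. Ndufa4l2, a paralog of Ndufa4 and likewise placed in complex I by its symbol alone, had the largest value of that group. It had only 18 to 34 reads per library: 0.978 and 0.940 CPM in somata and 3.79 and 3.52 CPM in processes (1.92 ± 0.32, adjusted p = 0.000594, edgeR). Ndufa4 itself had 60.9 and 59.9 CPM in somata and 124 and 121 CPM in processes (1.02 ± 0.11).

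Complex II, which also belongs to the tricarboxylic acid cycle and is the complex with no mitochondrially encoded subunit, had the smallest median of the 5 complexes, 0.36. All 4 of its genes are counted as core, and the core medians of complexes I, III and V were 0.49, 0.10 and 0.23. Its membrane anchor Sdhc was at 72.5 and 77.8 CPM in somata and at 133 and 131 CPM in processes, a log2 fold change of 0.81 ± 0.10 (adjusted p = 8.25e-05, edgeR). The flavoprotein Sdha had 99.1 and 95.5 CPM in somata and 152 and 132 CPM in processes (0.55 ± 0.12, adjusted p = 0.00315, edgeR). Both transcripts were separated between the compartments. For the iron-sulfur subunit Sdhb, 39.995 and 40.3 CPM in somata stood against 45.7 and 42.0 CPM in processes (0.13 ± 0.11, adjusted p = 0.347, edgeR), and the other membrane anchor, Sdhd, had 42.5 and 47.3 CPM against 52.5 and 48.3 CPM (0.17 ± 0.11, adjusted p = 0.225, edgeR). The 4 genes of this complex therefore fell into a pair that passed and a pair that did not. Reads of Sdhc divided by those of Sdhb gave 1.57 to 1.93 in the somata libraries and 2.89 to 3.12 in the processes libraries.

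Complex III divided into its core and its other subunits. Its 4 core subunits gave no call. Uqcrc1, a core protein facing the matrix, had 74.6 and 79.2 CPM in somata and 87.0 and 72.3 CPM in processes (0.05 ± 0.13, adjusted p = 0.766, edgeR). Uqcrc2, its partner, had 77.2 and 78.6 CPM in somata and 82.6 and 85.6 CPM in processes (0.11 ± 0.10). Cytochrome c1 (Cyc1) was at 0.09 ± 0.10, and the Rieske iron-sulfur protein (Uqcrfs1) at 0.22 ± 0.11 with an adjusted p of 0.124 (edgeR). With the replicate number as a block, Uqcrfs1 passed at an adjusted p of 0.0469. In contrast, all 5 small subunits of complex III were higher, from 1.25 for Uqcrh, the hinge protein, to 1.62 for Uqcr11. Uqcr11 had 63.5 and 72.6 CPM in somata and 221 and 199 CPM in processes (1.62 ± 0.12, adjusted p = 2.12e-06, edgeR). Reads of Uqcr11 per read of Uqcrc1 were 0.851 and 0.916 in somata control against 2.54 and 2.75 in processes control.

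The 10 nuclear-encoded genes of complex IV were all higher in processes, with a median of 1.45, the highest of the 5 complexes. Its catalytic core is encoded by the mitochondrial genome, so none of them is counted as core here. The other subunits of complexes I, III and V, taken without their core subunits, had medians of 1.02, 1.56 and 1.06. Cox6a1, a subunit that modulates the oxidase, had 61.7 and 68.0 CPM in somata and 292 and 220 CPM in processes (1.98 ± 0.15, adjusted p = 2.66e-06, edgeR). The lowest of the 10 was Cox5a, with 29.4 and 28.2 CPM in somata and 48.1 and 42.6 CPM in processes (0.66 ± 0.11, adjusted p = 0.000863, edgeR). No processes library of either gene reached down to the somata libraries. Among subunits with tissue-specific forms, the widely expressed Cox6b1, Cox7b and Cox8a were higher by 1.44, 1.12 and 1.55. Muscle or testis forms of complex IV subunits, Cox6a2, Cox7a1, Cox8b, Cox6b2, Cox7b2 and Cox8c, had between 0 and 23 reads per library. Cox7a2l, which joins complexes III and IV in supercomplexes, was higher by 1.33 ± 0.10. Cox4i1, the common form of subunit 4, which lies outside the name rule, had 134 and 147 CPM in somata and 385 and 324 CPM in processes (1.34), whereas its hypoxia- and lung-associated form Cox4i2 was at 0.470 to 1.31 CPM in all libraries (-0.46, adjusted p = 0.513, edgeR).

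In complex V, 15 of 17 members were higher, with a median of 0.94. Atp5f1e, the small epsilon subunit of the central stalk, had the largest log2 fold change of all 76 members, 2.14 ± 0.12, or 4.42-fold (adjusted p = 7.4e-07, edgeR). It was at 36.4 and 40.9 CPM in somata and 163 and 178 CPM in processes. The catalytic beta subunit Atp5f1b had 464 and 491 CPM in somata and 636 and 638 CPM in processes (0.42 ± 0.11, adjusted p = 0.00994, edgeR), and without replicate 1 of somata control its adjusted p was 0.0821. The alpha subunit Atp5f1a, with which the beta subunit alternates in the catalytic head, was at 306 and 331 CPM in somata and 357 and 336 CPM in processes (0.12 ± 0.11, adjusted p = 0.381, edgeR). The gamma subunit Atp5f1c was at 0.23 ± 0.10 (adjusted p = 0.0824, edgeR) and passed with the replicate block at 0.0343. Reads of Atp5f1e per read of Atp5f1a were 0.113 to 0.126 in the somata libraries and 0.458 to 0.530 in the processes libraries.

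Atp5mc1, Atp5mc2 and Atp5mc3 encode the same mature c subunit of the proton-driven rotor, and their values are given side by side. Atp5mc2 had 45.0 and 48.9 CPM in somata and 105 and 89.0 CPM in processes (1.05 ± 0.13, adjusted p = 6.97e-05, edgeR). Atp5mc1 was at 34.5 and 33.2 CPM against 47.3 and 44.5 CPM (0.44 ± 0.14), and Atp5mc3 at 61.4 and 64.4 CPM against 79.2 and 73.4 CPM (0.28 ± 0.10). The calls of both were close to the threshold, at adjusted p values of 0.0218 and 0.0433 (edgeR). For Atp5mc1 the adjusted p was 0.0510 to 0.0981 when any of the 4 control libraries was left out. For Atp5mc3 it was 0.0744 to 0.197 without replicate 1 or 2 of somata control, replicate 1 or 2 of somata PTX or replicate 1 of processes control. Differences between the 3 genes were not tested. Atp5if1, the inhibitor of ATP hydrolysis by complex V, was higher in processes by 1.09 ± 0.13.

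**Figure D2:**
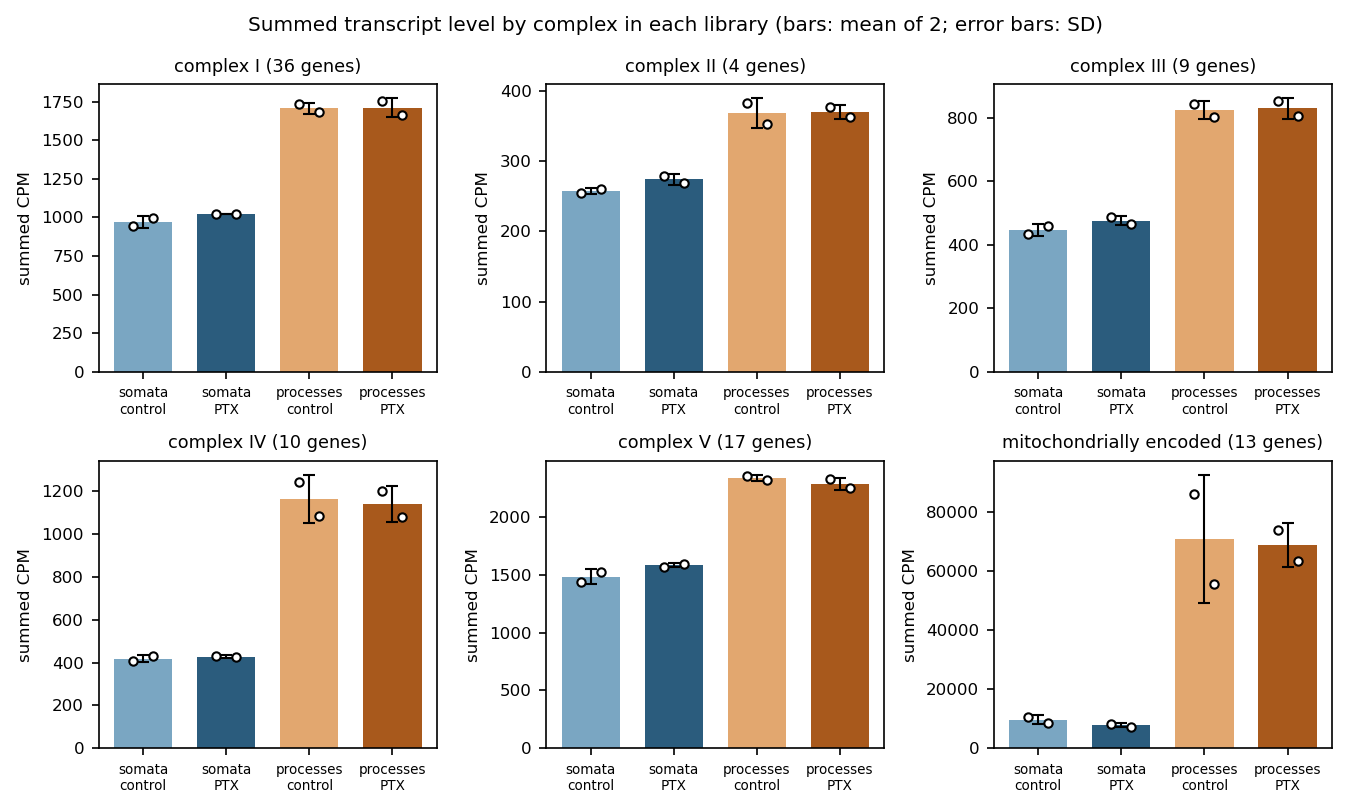
Summed CPM (TMM scaling) of the members of each complex, and of the 13 proteins encoded by the mitochondrial genome, in each of the 8 libraries (open points; bars, mean of 2 libraries; error bars, SD). For every complex the processes libraries lie above the somata libraries and the PTX libraries lie close to their controls; on scaling by library size only the order of most single subunits is reversed.

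Summed over its members, complex IV had the largest ratio of mean CPM in processes to that in somata of control cultures, 2.79, followed by complex III with 1.85, complex I with 1.76, complex V with 1.58 and complex II with 1.43. In PTX cultures the order was the same, with ratios of 2.66, 1.74, 1.67, 1.45 and 1.35. Complex IV holds no core subunit here and complex II only core subunits, so this order mixes core and other subunits. The sum of the 13 mitochondrially encoded proteins was 10722 and 8571 CPM in somata control and 86273 and 55498 CPM in processes control, a ratio of 7.35. All 13 were higher in processes, from 2.72 for Mt-co1, the catalytic subunit of complex IV, to 3.91 for Mt-atp8, a small subunit of complex V. Mitochondrially encoded reads of complex I per nuclear-encoded read of the same complex were 1.36 to 2.69 in somata and 7.92 to 13.3 in processes.

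The same comparison in PTX cultures gave 59 members higher and 0 lower in processes, where 25.7% of all tested genes were higher, and a median of 0.88 against -0.05 for all tested genes. Of the core subunits 7 of 18 were higher, and of the other subunits 52 of 58. Atp5f1e again had the largest value, 2.17 ± 0.12, with 34.4 and 39.6 CPM in somata PTX and 169 and 164 CPM in processes PTX. Atp5f1b, called in control cultures, did not pass here (0.21 ± 0.11, adjusted p = 0.127, edgeR). Atp5mc1 and Atp5mc3 did not pass without the replicate block, at 0.23 and 0.22, and passed with it. The control and PTX comparisons use separate libraries, and the test of their difference is the interaction given below.

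The second question was whether PTX changed subunit transcripts in somata. It called 0 of 76 members in the edgeR quasi-likelihood test, where 3.59% of all tested genes were called. At an unadjusted p under 0.05 there were 2 members, against 15.6% of all tested genes, and DESeq2 called 0 and the likelihood ratio test 1. Over all genes DESeq2 called 503 and the likelihood ratio test 972. The median log2 fold change was 0.09, against -0.01 over all tested genes, and 61 of 76 members had a positive value. Without replicate 1 of somata control the members' median was 0.03. Summed CPM in somata PTX relative to somata control was 1.05 for complex I, 1.06 for complex II, 1.07 for complexes III and V and 1.03 for complex IV. The smallest p belonged to Atp5mc1, one of the c-subunit genes, with 34.5 and 33.2 CPM in somata control and 50.3 and 42.3 CPM in somata PTX (0.45 ± 0.13, adjusted p = 0.0969, edgeR). Its groups did not overlap, and with the replicate block it passed at an adjusted p of 0.00159. Ndufb7, a complex I subunit at the intermembrane space, had 15.6 and 20.9 CPM in somata control and 20.5 and 26.3 CPM in somata PTX (0.36 ± 0.17, adjusted p = 0.347, edgeR). Here the groups overlapped, each PTX library lay above the control library of its own number, and the adjusted p with the block was 0.0184. Over all 14309 tested genes the block called 2002 in somata, against 513 without it. Sdhb was at 39.995 and 40.3 CPM in somata control and 49.2 and 44.9 CPM in somata PTX (0.23 ± 0.10, adjusted p = 0.319, edgeR).

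In processes, PTX changed 1 of 76 members, where 3.74% of all tested genes were called. At an unadjusted p under 0.05 the count was also 1, against 16.6% of all tested genes. The members' median was -0.01, as was that of all tested genes, and 35 of 76 had a positive value. Apart from Ndufa8, log2 fold changes lay between -0.25 and 0.31. Ratios of summed CPM in processes PTX to processes control were 0.978 to 1.01 over the 5 complexes. For comparison, the median absolute log2 difference between the 2 replicates of a group was 0.10 over the members in processes control and 0.12 in processes PTX.

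Ndufa8, an accessory subunit of complex I that faces the intermembrane space and is held by disulfide bonds, was the member that rose. It had 43.2 and 41.8 CPM in processes control and 73.6 and 72.6 CPM in processes PTX, from 387, 356, 641 and 722 reads, a log2 fold change of 0.78 ± 0.11 or 1.72-fold (adjusted p = 0.00471, edgeR). In somata it had 30.05 and 33.6 CPM in control and 31.9 and 34.3 CPM in PTX cultures, and the log2 fold change of 0.06 ± 0.11 did not pass (adjusted p = 0.884, edgeR). The process groups were well separated and the somatic groups overlapped. Relative to the reads of all other complex I members in its own library, Ndufa8 made up 0.0322 to 0.0349 in the 4 somata libraries, 0.0255 in both processes control libraries and 0.0438 and 0.0455 in the processes PTX libraries. The rise passed when any library was left out, with adjusted p values of 0.00633 to 0.0430. Processes exceeded somata by 0.42 ± 0.11 in control cultures and by 1.14 ± 0.11 in PTX cultures, and the former call was lost without replicate 1 of somata control (adjusted p = 0.0893). In the RefSeq gene table of GRCr8 no gene overlapped Ndufa8, and its neighbours Morn5 and Lhx6 had 3 to 21 and 2 to 31 reads per library. Ndufc2, a complex I subunit of the membrane arm, and Cox7b had the next smallest p values in processes, with 0.31 ± 0.14 (adjusted p = 0.310, edgeR) and 0.20 ± 0.11 (adjusted p = 0.390, edgeR).

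**Figure D3:**
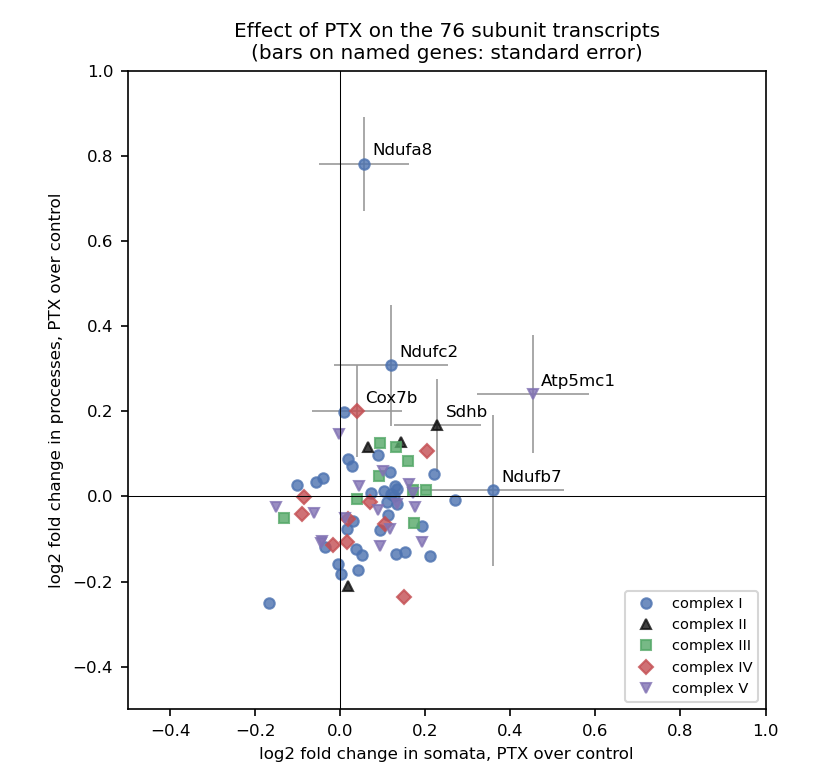
Log2 fold change with PTX in processes (vertical axis) against that in somata (horizontal axis) for the 76 members, with a symbol per complex and standard errors on the named genes (TMM scaling, 2 libraries per group). Ndufa8 stands apart at 0.78 in processes and 0.06 in somata, and the other members lie between -0.25 and 0.31 in processes and between -0.17 and 0.45 in somata.

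The difference between the PTX effects in processes and in somata was tested as an interaction. By the quasi-likelihood test 0 members passed, as did 0% of all tested genes. At an unadjusted p under 0.05 there was 1 member, against 4% of all tested genes, and the likelihood ratio test and DESeq2 also called 0 members. The single member was Ndufa8, with an interaction of 0.73 ± 0.15 and an unadjusted p of 0.000642, rank 7 of 14309 genes (adjusted p = 1, edgeR). With the replicate number as a block its interaction was 0.73 ± 0.14 with an adjusted p of 0.0277, and 15 of the 14309 genes were called. A difference of the PTX effect between the compartments was therefore shown for Ndufa8 under the block alone among the settings tried.

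**Figure D4:**
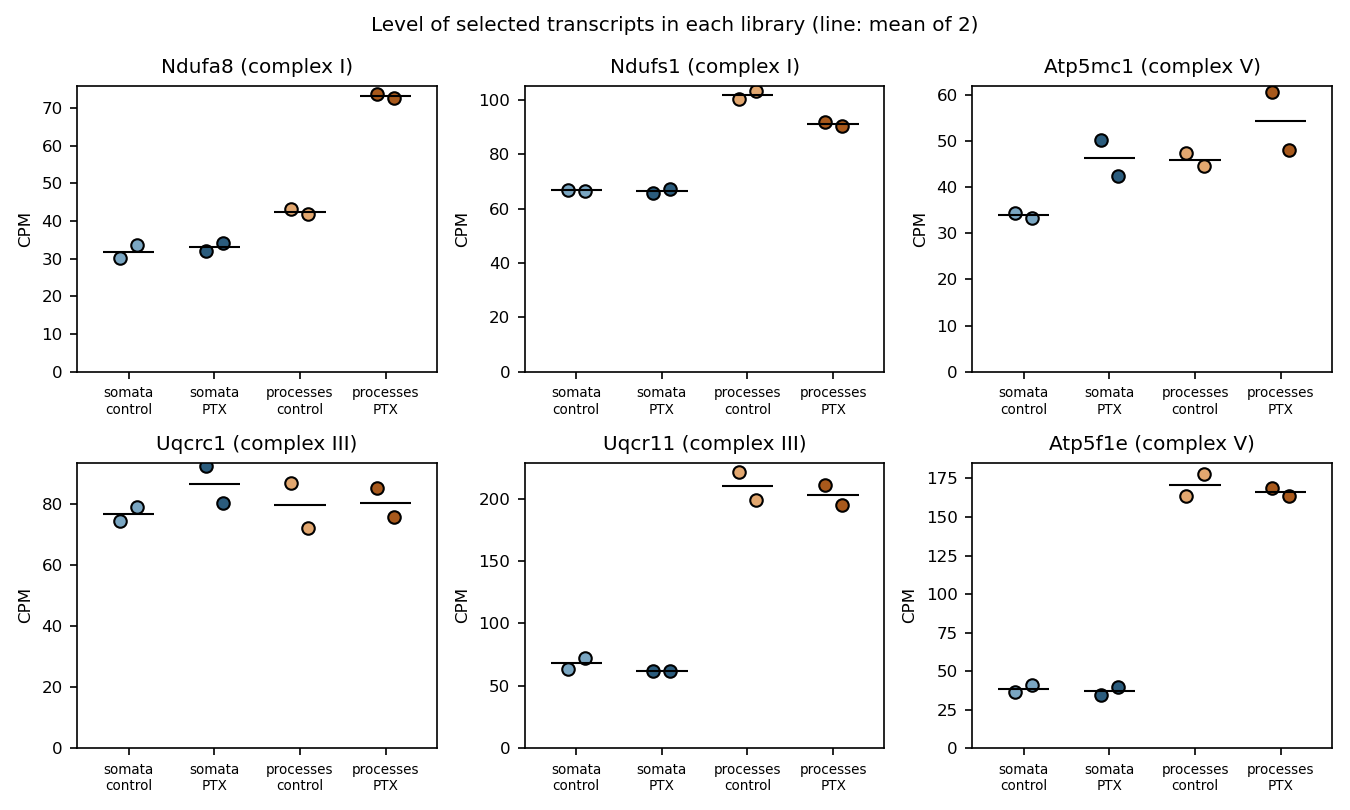
Level in CPM (TMM scaling) of 6 members in each of the 8 libraries (points; line, mean of 2 libraries), by compartment and treatment. Ndufa8 is separated by PTX in processes (43.2 and 41.8 against 73.6 and 72.6 CPM), Atp5mc1 differs most between the treatments in somata, the core subunit Uqcrc1 overlaps between compartments, and Ndufs1, Uqcr11 and Atp5f1e lie higher in processes, an order that with library size only is reversed for Ndufs1 and Uqcr11.

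Nuclear genes of the respiratory chain are known to share promoter elements for the factors NRF1, GABP (an ETS factor), YY1 and the estrogen-related receptors. RefSeq promoter windows of GRCr8, from 250 bases before to 50 after the annotated start, were matched for 66 of the 76 members, and the remaining 10, Ndufa8 among them, had none. The letters searched on both strands were GCGCANGCG for NRF1, CCGGAAG for ETS factors, AANATGGC for YY1 and TNAAGGTCA for the estrogen-related receptors, where N is any base. The NRF1 letters are nearly their own reverse complement, and matches of different motifs overlapped in 0 members. NRF1 letters were found in 17 of the 66 windows (25.8%) and in 6.26% of all 27457 promoter windows. ETS letters were found in 19 (28.8%) against 9.22%, YY1 letters in 28 (42.4%) against 7.36%, and receptor letters in 3 (4.55%) against 1.15%. Most of the YY1 matches reached or lay past the annotated start rather than before it. Their distance to the start was -38 in Sdha and -17 in Sdhb, where a negative value lies past it. The 27457 windows were not limited to protein-coding genes or to genes tested here, unlike the members, so the shares are not of like sets. A match of letters is a description and does not show binding.

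Compartment values in control cultures were set beside the presence of each motif. The median log2 fold change was 0.95 for the 17 with NRF1 letters and 0.999 for the 49 without, and 0.97 for both the 28 with and the 38 without YY1 letters. For ETS letters it was 1.25 for the 19 with and 0.90 for the 47 without, and those with ranged from 0.11 to 1.65. The 3 with receptor letters had a median of 0.28 and the 63 without 0.999. No test was made of these differences. The windows below show the same letters upstream of genes on both sides of the division, in capitals, 5′ to 3′ on the strand of the gene, with NRF1 letters in Atp5me (chr14:1464774-1464803, plus strand), Ndufa5 (chr4:53971248-53971277, minus strand) and Sdha (chr1:30764454-30764483, plus strand), and ETS letters in Uqcrh (chr5:134790947-134790976, minus strand), Uqcrc2 (chr1:184599112-184599141, plus strand) and Ndufs1 (chr9:72073786-72073815, minus strand):
Atp5me: ttgcgctacgGCGCATGCGctttcctggct
Ndufa5: cgtatgagctGCGCAGGCGcaaatctctcc
Sdha: cgtttgcagaGCGCAGGCGcaccaccactc
Uqcrh: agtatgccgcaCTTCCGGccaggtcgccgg
Uqcrc2: actcatccggcCTTCCGGagcagtagagca
Ndufs1: ggcctcggctaCTTCCGGcggaactgcagg

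The capitals begin 76 bases before the start in Atp5me, 32 in Ndufa5, 89 in Sdha, 83 in Uqcrh, 117 in Uqcrc2 and 199 in Ndufs1. Uqcrh and Uqcrc2, which carry ETS letters on the same strand, encode a small and a core subunit of complex III, with log2 fold changes of 1.25 and 0.11. Atp5me, a small subunit of the membrane part of complex V, was at 1.65, Ndufa5 at 1.203 and Sdha at 0.55.

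Other genes of the pathway were counted to place the subunits. Among 44 tested assembly factors, which build the complexes but are not part of them, 14 were higher (31.8%) and 3 lower in processes of control cultures, with a median of 0.21. Among all tested genes 25.8% were higher and 21.9% lower, and the shares of the lists in this paragraph are to be read against these. The extremes were Coa5, a complex IV factor, at 1.80 (somata 60.8 and 59.5 CPM, processes 204 and 216 CPM) and Cox10, which makes heme for complex IV, at -0.64 (somata 7.78 and 8.81 CPM, processes 5.46 and 5.17 CPM). By complex, the largest and smallest values were 1.63 for Ndufaf8 and -0.49 for Ecsit (complex I), 0.50 for Sdhaf4 and -0.07 for Sdhaf3 (complex II), 1.02 for Lyrm7 and -0.52 for Ttc19 (complex III) and 0.23 for Atpaf2 and 0.17 for Tmem70 (complex V), of which the values of Sdhaf4, Sdhaf3, Atpaf2 and Tmem70 did not pass. Of 11 tested enzymes of the tricarboxylic acid cycle, 4 were higher (36.4%) and 0 lower, with a median of 0.04, a highest value of 1.46 for Suclg2 and a lowest of -0.21 for Idh3a, which did not pass. Of 11 regulators of mitochondrial biogenesis, 3 were higher (27.3%) and 0 lower, led by the factor Yy1 with 0.56, and the lowest, Tfb2m at -0.35, did not pass. Cytochrome c (Cycs), the mobile carrier between complexes III and IV, and Ndufab1, the acyl carrier subunit of complex I, lie outside the name rule and were higher by 0.57 and 0.46.

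Ribosomal protein genes, another group of genes for small subunits of large complexes, were set beside them. Of 75 cytosolic ribosomal protein genes, 72 were higher and 1 lower in processes of control cultures, with a median of 1.71, a highest value of 2.89 for Rps29 and a lowest of -0.52 for Rpl7l1. Of 75 mitochondrial ribosomal protein genes, whose products are also made in the cytosol and imported, 21 were higher (28.0%, against 25.8% of all tested genes) and 6 lower, with a median of 0.12, from -1.07 for Mrpl2 to 1.43 for Mrpl52. The medians of these groups thus lay above and below the 0.9997 of the respiratory chain members. No test of the difference between lists was made. Many ribosomal protein genes have near-identical copies elsewhere in the genome, so their counts are uncertain to that extent.

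With PTX, the lists around the subunits gave few calls, as did the genes at large, of which 3.59% in somata and 3.74% in processes were called and 15.6% and 16.6% had an unadjusted p under 0.05. The edgeR quasi-likelihood test called 0 cytosolic ribosomal protein genes in either compartment, with 0 at an unadjusted p under 0.05 in somata and 2 in processes. Of the mitochondrial ribosomal protein genes it called 1 in somata, Mrps34 (6.55 and 6.46 CPM in control, 11.7 and 9.61 CPM with PTX, 0.71 ± 0.17, adjusted p = 0.0490), and 0 in processes, where 2 had an unadjusted p under 0.05. Among the assembly factors it called 1 in somata, the complex III factor Ttc19 (29.2 and 25.8 CPM in control, 43.8 and 41.1 CPM with PTX, 0.63 ± 0.11, adjusted p = 0.0127), and 0 in processes, where 6 had an unadjusted p under 0.05. Mrps34 was named after its values were seen. The 13 mitochondrially encoded proteins gave 0 calls in either compartment, with 2 at an unadjusted p under 0.05 in somata, both lower, and 0 in processes. Their median log2 fold change with PTX was -0.41 in somata and -0.10 in processes, beside 0.09 and -0.01 for the nuclear-encoded subunits.

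**Figure D5:**
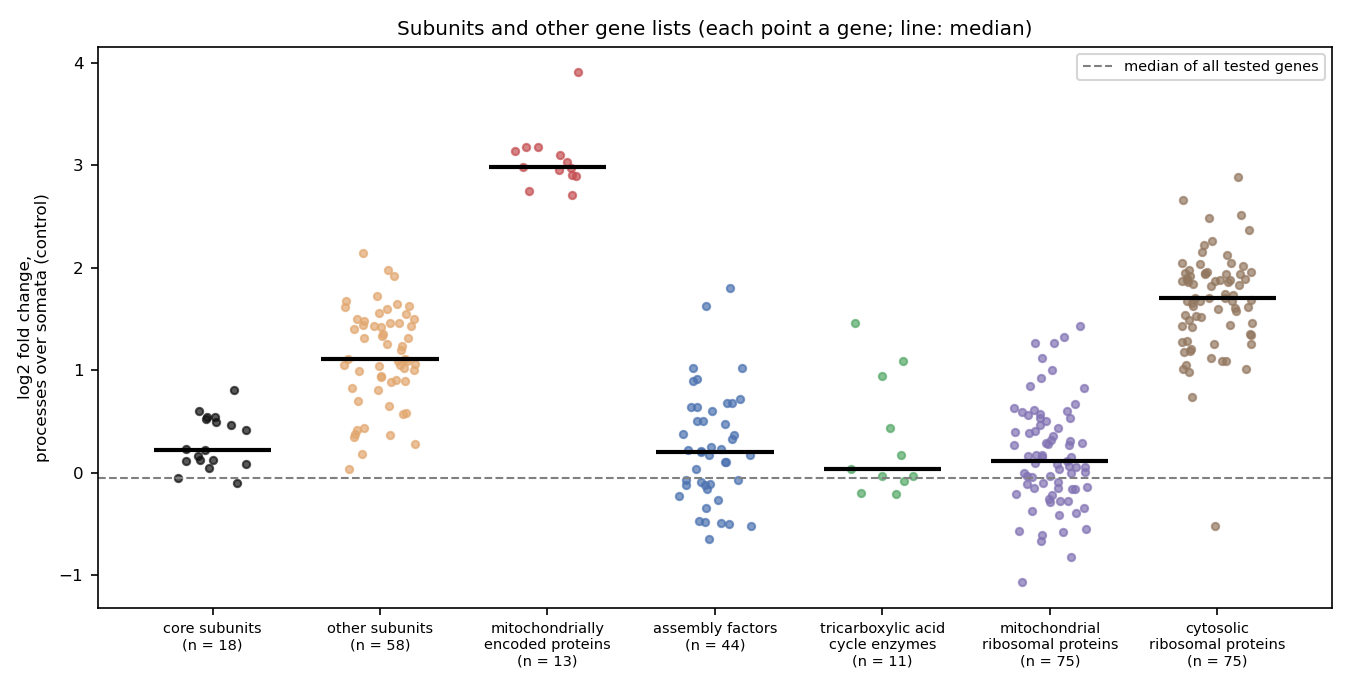
Log2 fold change in processes against somata of control cultures (vertical axis, TMM scaling) for each gene (points) of the core subunits, the other subunits and 5 further lists, with the median of each list (line) and that of all tested genes (dashed line, -0.05). Medians are 0.23 for core subunits, 1.12 for other subunits, 2.98 for mitochondrially encoded proteins, 0.21 for assembly factors, 0.04 for tricarboxylic acid cycle enzymes, 0.12 for mitochondrial and 1.71 for cytosolic ribosomal proteins; with library size only all lie lower.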

How the data were processed

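Ribosome-depleted total RNA of somata and processes of rat hippocampal neurons, from control and PTX cultures, was sequenced in 8 libraries. By the study's methods, trimmed reads were placed on Rnor_6.0 with Subread, assigned to Ensembl genes with featureCounts, and collapsed by the authors to 1 count per symbol. The submitters' processing notes name STAR, featureCounts and edgeR. The deposited count table holds whole-number counts without normalization for 28909 symbols, and 0 of its columns were left unused. The other deposited tables hold the authors' own PTX comparisons (log2 fold change, log2 CPM, likelihood ratio, p-value and FDR), and only their biotype column was used. Whether counting used strand and how it treated reads with several matches is not given in the sources used here. Of the 76 members, 26 overlap another gene in the RefSeq table of GRCr8, and several have close copies elsewhere, so their counts are uncertain to that extent.

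The filter kept the 14309 genes in which 2 or more libraries exceeded 20 reads. TMM factors were computed in edgeR 4.0.16 (R 4.3.3), and all libraries were fitted with 1 coefficient per group. glmQLFTest gave p-values, adjusted by the Benjamini-Hochberg method over all tested genes within each contrast (threshold 0.05). Standard errors were obtained from each log2 fold change and its F statistic (log2 fold change over root F). CPM are counts per 1000000 of the TMM-scaled library size. The pipeline was tested on simulated data. Ratios within libraries are descriptions, given without a test.

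Members and lists were chosen with earlier results of these data known. Named are the 3 members with the largest and the 3 with the smallest log2 fold change between compartments of control cultures, the extremes of each complex, members called with PTX and the 3 smallest p-values per PTX contrast, core subunits, isoforms with tissue-specific forms, members under 5 CPM, and the extremes of each further list. The values of 1 member are not reported here. Other named subunits are examples chosen after their values were seen. The main fit had no block. In the replicate block, an alternative, libraries with one replicate number were taken as paired. This pairing was tried since replicate 2 minus replicate 1 correlated across genes, which are not independent replicates, in all 6 pairs of groups (r from 0.27 to 0.54). Over the 76 members alone r was 0.023 to 0.44, lowest for somata control with processes control. The labels give the numbers without saying what they mark. The alternatives tried were edgeR's likelihood ratio test and DESeq2 1.42.0, other scalings, filters and thresholds, the replicate block, the 4 libraries of a comparison alone, and leaving out each library, where the lone library of a group is assumed to vary like the others. The qPCR, FISH and proteomics data of the study were not analysed here.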

Additional observations from a re-analysis of the deposited data

How the results depend on the processing

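Scaling by library size turned the direction of most values. With library size only, 1 member was higher and 60 lower in processes of control cultures, and 1 higher and 65 lower in PTX cultures, with members' medians of -0.81 and -0.94, and medians with PTX of 0.16 in somata and 0.038 in processes. Of all 14309 tested genes, 13462 in control and 13499 in PTX cultures were then called between compartments in either direction. The turn follows from the construction, since that scaling counts the mitochondrial reads. Log2 fold changes of named genes in control cultures were then -1.69 for Atp5f1a, -1.39 for Atp5f1b, -1.58 for Atp5f1c, -1.37 for Atp5mc1, -0.77 for Atp5mc2, -1.53 for Atp5mc3, -1.16 for Cox5a, -0.38 for Cox6b1, -0.48 for Cox7a2l, -0.69 for Cox7b, -0.28 for Cox8a, -1.72 for Cyc1, -0.79 for Ndufa4, -1.39 for Ndufa8, -1.77 for Ndufa9, -1.198 for Ndufs1, -1.29 for Ndufs7, -1.32 for Ndufs8, -1.34 for Ndufv2, -1.27 for Sdha, -1.68 for Sdhb, -0.997 for Sdhc, -1.65 for Sdhd, -0.19 for Uqcr11, -1.77 for Uqcrc1, -1.69 for Uqcrc2 and -1.59 for Uqcrfs1, and -0.68 for Ndufa8 in PTX cultures. With upper quartile scaling 55 and 52 members were higher, the medians were 0.80 and 0.71, 2 members were lower in processes of PTX cultures, and values just below 0 were found for Atp5f1a (-0.082), Cyc1 (-0.11), Ndufa9 (-0.16), Sdhb (-0.076), Sdhd (-0.037), Uqcrc1 (-0.15) and Uqcrc2 (-0.092), none of which had passed. DESeq2 size factors moved the median to 0.90 in PTX cultures and to 0.00090 for PTX in processes.

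Requiring an absolute log2 fold change above 1 left 38 members in control cultures, 33 in PTX cultures and 0 for PTX in processes. Without a filter the median was 0.87 in PTX cultures and -0.0017 for PTX in processes, and 1 member was called with PTX in somata, as it was by the likelihood ratio test. With at least 10 reads in every library the median in PTX cultures was 0.82, and Ndufa9 (-0.029) and Uqcrc1 (-0.017) turned below 0. The cause of these changes was not tested. The call of Atp5mc3 in control cultures was also lost with upper quartile scaling, with DESeq2, without a filter, with reads required in every library and with the 4 compared libraries alone.

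With the replicate number as a block, 2 members were called with PTX in somata (Atp5mc1 and Ndufb7) and 1 in the interaction (Ndufa8), Atp5f1c and Uqcrfs1 passed in control cultures, and Atp5mc1 and Atp5mc3 passed in PTX cultures. The pairing changed no other call of a member. Over all 14309 tested genes the block called 2002 with PTX in somata and 1601 in processes, against 513 and 535 without it. Leaving out 1 library at a time gave 56 to 64 members higher in control cultures and 54 to 59 in PTX cultures, medians of 0.95 to 1.04 and of 0.86 to 0.90, and medians with PTX of 0.034 to 0.13 in somata and -0.057 to 0.022 in processes, where the sign of the median depended on the library left out. Uqcrc1 ranged from -0.088, without replicate 1 of processes control, to 0.18, without replicate 2, and Ndufv1 from -0.13 to 0.019 without the same libraries. Depth limits the low members most, above all Ndufa4l2 with 18 to 34 reads.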
